A study of Mus musculus with 20 samples.

Results

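Voltage-gated sodium and calcium channels turn a change in membrane voltage into an inward current, and the genes described here encode their subunits together with those of the sodium leak channel NALCN. The set holds every gene of the deposited table whose symbol begins with Scn and a digit or with Cacn, except the T-type calcium channel genes Cacna1g, Cacna1h and Cacna1i, plus Nalcn and its auxiliary subunits Unc79 and Unc80. That rule, which uses no measured value, gave 33 of 12988 genes. RNA had been sequenced from the adBNST, the anterodorsal part of a forebrain nucleus (the bed nucleus of the stria terminalis) that takes part in stress and anxiety responses. Mice entered the experiment at an age of 7 to 9 weeks. The 4 groups were female controls, stressed females, male controls and stressed males, with 15 mice in each. Stressed mice went through chronic variable mild stress (CVMS), a 6-week schedule of minor stressors given every day, and their tissue was taken 1 hour after a last stressor of wet bedding. All mice, controls included, were anesthetized with ketamine before dissection. Each library pooled the tissue of 3 mice, so that a group has 5 libraries, and the strain is not given in the sources used here.

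A sodium channel is built from 1 large pore-forming alpha subunit and small beta subunits, single-pass membrane proteins that set the channel's gating and its place in the membrane. A high-voltage-activated calcium channel joins a pore-forming alpha-1 subunit to a cytoplasmic beta subunit and an extracellular alpha-2-delta subunit, both of which bring the channel to the surface. Most of the gamma-family proteins in neurons work as TARPs, the auxiliary subunits of AMPA-type glutamate receptors, rather than as calcium channel subunits. NALCN carries a standing sodium leak that depolarizes resting neurons, and UNC79 and UNC80 hold the complex together.

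Total counts ran from 2707881 per library, in female control 4, to 33595388. Levels are given in CPM, counts scaled to a common library size with TMM factors. Differences are log2 fold changes with their standard error (SE) from 1 edgeR quasi-likelihood fit of all 20 libraries. A gene was called at a Benjamini-Hochberg adjusted p under 0.05 over all 12988 genes. The lowest count of any member in any library was 15. Of the markers for GABAergic and peptide neurons of this region, 13 of 13 were in the table. A list of 14 genes enriched in the neighbouring striatum (Drd1, Drd2, Ppp1r1b, Adora2a and others, some of which BNST neurons also express) was in the table too, with all 14 above 0 in every library. The summed level of these 14 genes was 3071 to 5283 CPM in female controls, 2947 to 5910 CPM in stressed females, 2876 to 3546 CPM in male controls and 3944 to 5884 CPM in stressed males. The markers of choroid plexus and of cortical glutamatergic neurons were in the table for 3 of 7 and 2 of 7 genes. The summed thalamic markers (9 of 11 in the table) were highest in stressed female 2, at 444 CPM.

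To compare genes with each other, the mean CPM over 20 libraries was divided by the gene's exon length in kilobases. That length joins all annotated exons of a gene, so the ranking depends on the annotation. It is 25228 bases for Cacna1e and 9942 for Cacna1b, and by CPM alone Cacna1e (375) stood above Cacna1b (191). On this scale the members had a median of 16.1 CPM per kb, beside 7.21 CPM per kb over the 12796 genes with a length. Genes of small sodium channel beta subunits stood at the top, with Scn4b at 85.1 and Scn2b at 75.7 CPM per kb, and Scn3b stood at 37.7. Scn2a, the gene of the alpha subunit Nav1.2, led its class at 34.9 CPM per kb, followed by Scn8a (Nav1.6) at 16.1, Scn3a (Nav1.3) at 10.9 and Scn1a (Nav1.1) at 9.27. Scn9a, best known for the channel Nav1.7 of pain-sensing neurons, stood at 2.28 CPM per kb, and Scn7a, which encodes the sodium-sensing protein Nax, at 1.09.

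Among the calcium channel pores, Cacna1b (N-type) stood at 19.2 CPM per kb, Cacna1e (R-type) at 14.9, Cacna1a (P/Q-type) at 12.8, and the L-type genes Cacna1c and Cacna1d at 5.68 and 4.84. Cacnb1 led the beta subunits at 35.2 CPM per kb and Cacnb2 was last of them at 5.33. Cacna2d2 led the alpha-2-delta subunits at 33.2 CPM per kb, and Cacna2d4, a subunit known from the retina, was the lowest of all 33 genes at 0.339. Cacng7 led the gamma family at 49.7 CPM per kb, with Cacng2, which encodes the TARP stargazin, at 7.63. In the NALCN complex Unc80 stood at 32.1, Nalcn at 15.3 and Unc79 at 8.40 CPM per kb.

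**Figure D1:**
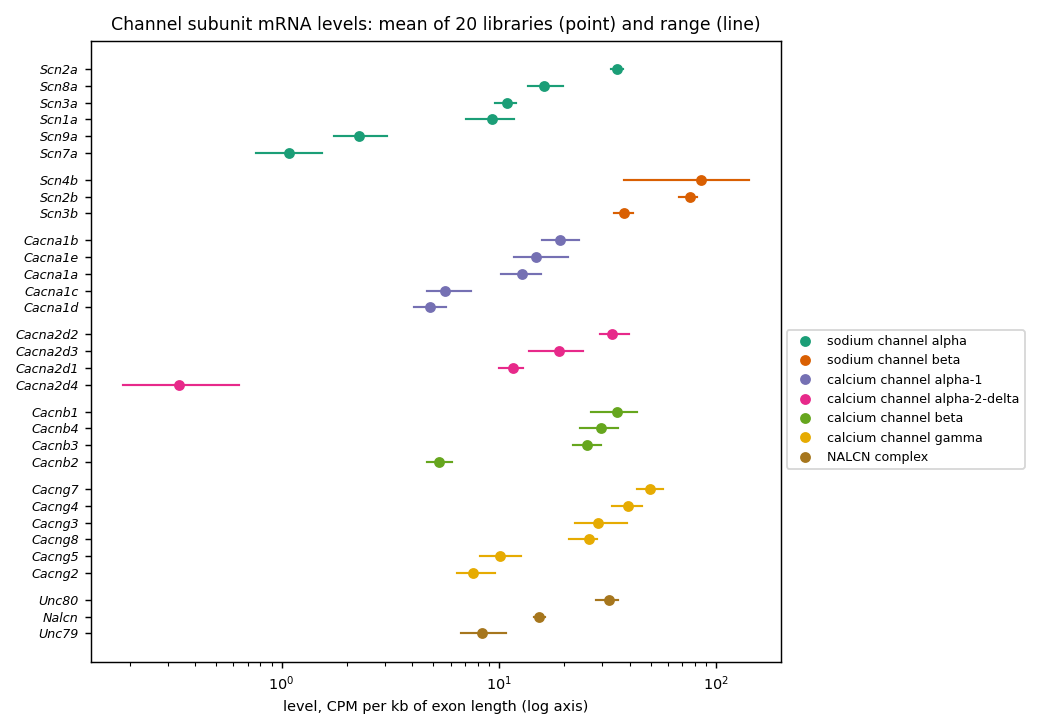
Level of 31 of the 33 channel genes in CPM per kb of exon length on a log axis, grouped and coloured by class. Points are means of 20 libraries and lines run from the lowest to the highest library. The line of Scn4b is the widest among the sodium channel beta subunits, and Cacna2d4 lies lowest at 0.339 CPM per kb.

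The members differed in how much they varied between libraries of 1 group. The SD of log2 CPM within groups had a median of 0.138 over the 33 members and of 0.132 over all genes. Scn4b had an SD of 0.466, a value that only 0.647% of all genes reached or exceeded. At the other end were Nalcn, at 0.0477, and Scn2a, at 0.0515.

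SCN4B, the beta-4 subunit, is known for producing the resurgent sodium current of fast-firing neurons and is abundant in striatal projection neurons. The gene lies on chromosome 9 at 45138395 to 45154152 on the plus strand (GRCm38, GENCODE M21). Scn4b measured 589, 366, 267, 678 and 563 CPM in the female controls, with a mean of 493 ± 170 (SD, n = 5). In stressed females it measured 338, 241, 459, 612 and 676 CPM, with a mean of 465 ± 182 (SD, n = 5). Male controls gave 188, 299, 226, 232 and 235 CPM, with a mean of 236 ± 40.1 (SD, n = 5). Male controls were thus uniformly low, with 4 of 5 libraries below every female control, while both female groups spread widely. Stressed males gave 407, 558, 709, 417 and 421 CPM, with a mean of 502 ± 131 (SD, n = 5), and all 5 lay above all 5 male controls.

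Scn4b was lower in male than in female controls by a log2 fold change of -1.06 (SE 0.25, edgeR adjusted p 0.0493), and it was the only member called in any of the 6 comparisons. The 2 groups overlapped, since male control 2 lay above female control 3. That comparison called 0.747% of all genes, and 0.331% in the lower direction. Stressed minus control males gave 1.09 (SE 0.25, adjusted p 0.0837), which misses the threshold, although the groups did not overlap. These 2 differences share the male controls and are not independent of each other. In females the stress difference was -0.07, with a 95% interval of -0.58 to 0.44. Between stressed males and stressed females the difference was 0.11 (interval -0.40 to 0.62). The test of the sex difference in the stress response itself gave 1.17 (SE 0.35, adjusted p 0.306).

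The call on Scn4b in controls depended on single libraries and settings. It was kept in 2 of 10 fits that left out 1 control library each, those without female control 2 and without female control 3. Without female control 5, one of its higher libraries, the adjusted p was 0.137. The difference moved with the striatal markers: 14 of 14 striatal genes had a lower value in male than in female controls (median log2 fold change -0.59), and 14 of 14 a higher one in stressed than in control males (median 0.62), while in females 8 were higher and 6 lower (median 0.04). With the mean log2 CPM of those 14 genes as a covariate, the Scn4b difference was -0.21 in controls (adjusted p 0.279) and 0.22 in stressed against control males (adjusted p 0.822). Over the 20 alternatives run for each, the adjusted p of Scn4b went from 0.0115 to 0.279 in controls and from 0.0181 to 0.822 for stress in males. The mean log2 CPM of the striatal genes, centred over libraries, was -0.54 to -0.17 in male controls and -0.05 to 0.59 in stressed males. These ranges do not overlap, so the covariate fit of stress in males rests on 1 slope assumed to be shared by all 4 groups. Scn4b itself followed these genes closely (r 0.98), so a smaller difference was built into the fit, and its cause was not tested. In bulk tissue, fewer cells of a type and less RNA per cell cannot be told apart.

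**Figure D2:**
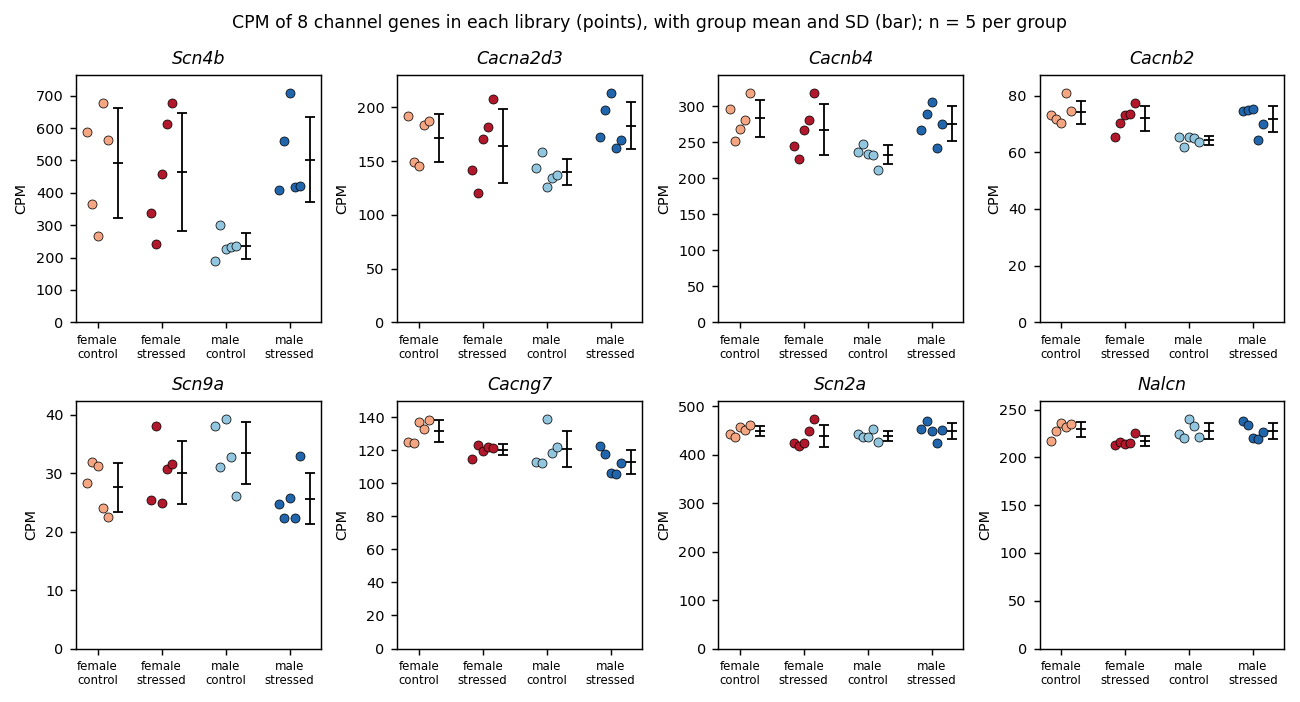
CPM of 8 channel genes in each of the 20 libraries. Points are libraries, coloured by group, and bars give the group mean with the SD (n = 5). Scn4b is low in all male controls, at 188 to 299 CPM, whereas Scn2a and Nalcn hardly move between groups.

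Library by library, Scn4b tracked the striatal score, the mean log2 CPM of the 14 genes. Over 20 libraries Pearson's r was 0.98 and Spearman's rho 0.968 (permutation p 1e-05 for each, the smallest that the permutations can give; adjusted over 33 members, 5.5e-05). It was 0.978 without the 2 libraries farthest from the median score and 0.971 after each group's mean had been subtracted. The slope was 1.62 log2 units of Scn4b for each log2 unit of the score. Libraries, depth scaling and dissection are shared by both axes. The permutations exchanged libraries across groups, so their p also reflects the differences between group means. No p was computed for the value after subtraction. The 14 genes were chosen with earlier results of these data known, so the list is not an independent one. The score ran from -0.38 to 0.43 in female controls, from -0.50 to 0.57 in stressed females, from -0.54 to -0.17 in male controls and from -0.05 to 0.59 in stressed males.

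**Figure D3:**
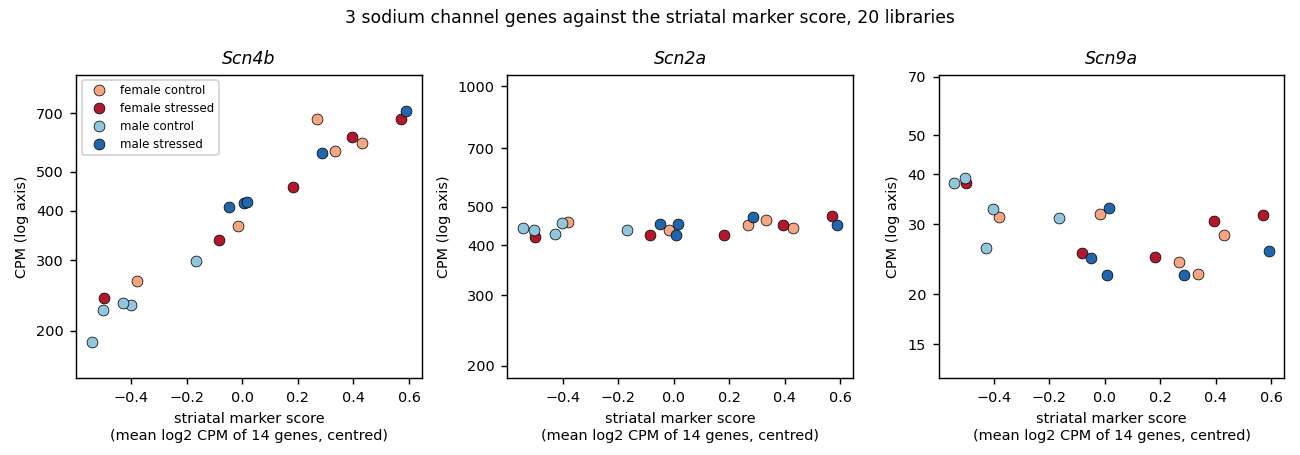
CPM of Scn4b, Scn2a and Scn9a on log axes of equal span against the striatal marker score, with 1 point per library coloured by group. Scn4b climbs with the score in every group (r 0.98) and Scn9a slopes down (r -0.55). Scn2a changes little in level, with a slope of 0.063 log2 units for each unit of the score (r 0.46).

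The other sodium channel beta subunits had smaller differences. Scn2b, whose product is linked covalently to alpha subunits, had group means of 361 ± 21.6 CPM in female controls, 352 ± 21.7 in stressed females, 335 ± 15.3 in male controls and 362 ± 17.3 in stressed males (SD, n = 5 each). Its stress difference in males was 0.11 (SE 0.05, adjusted p 0.306). Scn3b ranged from 186 to 227 CPM over all 20 libraries, and its difference averaged over both sexes was 0.08 (SE 0.04, adjusted p 0.344).

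Pore-forming sodium channel subunits gave no call. Scn2a, the main alpha subunit of young and unmyelinated axons, measured 442, 437, 457, 451 and 462 CPM in female controls. The stressed females gave 424, 419, 425, 449 and 474 CPM. Male controls gave 443, 436, 437, 454 and 426 CPM, and stressed males 453, 471, 450, 425 and 452 CPM. All groups overlapped, and the 95% intervals bound the stress difference of Scn2a to -0.13 to 0.05 in females and to -0.05 to 0.12 in males. For Scn3a these intervals were -0.10 to 0.12 and -0.08 to 0.15. Scn8a, the alpha subunit of the axon initial segment, had wider ones, -0.20 to 0.15 and -0.05 to 0.29.

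Scn9a had a stress difference in males of the opposite sign to those of the beta subunits. It measured 28.2, 31.9, 31.2, 24.1 and 22.5 CPM in the control females, 25.4, 38.0, 24.8, 30.6 and 31.6 CPM in stressed females, 38.0, 31.1, 39.2, 32.8 and 26.1 CPM in male controls, and 24.6, 22.4, 25.7, 22.3 and 32.95 CPM in stressed males. Of the stressed males 4 of 5 lay below every male control, and the fifth lay among them. The stress difference was -0.36 in males (SE 0.13, adjusted p 0.185) and 0.11 in females (SE 0.13, adjusted p 0.894). The test of the difference between these responses gave -0.47 (SE 0.19, adjusted p 0.401). Of the Scn9a exons, 180 bases overlap a gene on the opposite strand, and whether the counting used strand is not given in the sources used here.

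Calcium channel beta subunits held both members that set male controls apart from female controls without overlap. Cacnb4, known from an epileptic mouse mutant, measured 296, 252, 268, 281 and 318 CPM in female controls and 236, 248, 234, 232 and 211 CPM in male controls. Stressed females gave 244, 226, 267, 281 and 318 CPM, and stressed males 267, 289, 305, 241 and 275 CPM. The 5 male controls lay below the 5 female controls, and 1 stressed male lay within the range of the male controls. The sex difference in controls was -0.29 (SE 0.08, adjusted p 0.097), the stress difference in males 0.25 (SE 0.08, adjusted p 0.140) and the interaction 0.33 (SE 0.11, adjusted p 0.348). Among alternative fits, DESeq2, a covariate of oligodendrocyte markers and a fit of only the controls did call Cacnb4 for sex in controls.

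Cacnb2 encodes the beta subunit that also serves L-type channels of the heart. It measured 73.0, 71.9, 70.3, 80.9 and 74.5 CPM in female controls and 65.5, 61.8, 65.4, 64.9 and 63.7 CPM in male controls, again without overlap. In stressed females it measured 65.5, 70.5, 73.0, 73.6 and 77.3 CPM and in stressed males 74.7, 74.8, 75.1, 64.5 and 70.1 CPM. Its sex difference in controls was -0.19 (SE 0.05, adjusted p 0.0845) and its stress difference in males 0.16 (SE 0.05, adjusted p 0.148). Cacnb4 and Cacnb2 were the 2 of 33 members that were lower without overlap in male than in female controls, where 2.02% of all genes were. In the same comparison 13 of 13 oligodendrocyte markers (median log2 fold change -0.16), 10 of 10 microglial markers (-0.21) and 8 of 9 endothelial markers (-0.12) had lower values in males, beside the 14 of 14 striatal ones (-0.59). Lower values were also held by 8 of 10 astrocyte, 7 of 9 thalamic and 4 of 6 mural markers. General neuron markers split into 6 higher and 6 lower, and oligodendrocyte precursor markers into 3 and 3. Of the 13 markers for neurons of this region, 8 were higher (median 0.04). The part of the microglial and endothelial markers in these differences was not tested. Both genes have exon bases that overlap opposite-strand genes, 1433 in Cacnb4 and 968 in Cacnb2.

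Cacnb1, best known for its part in muscle excitation, averaged 161 ± 24.5 CPM in female controls, 173 ± 21.6 in stressed females, 139 ± 9.42 in male controls and 165 ± 16.8 in stressed males (SD, n = 5 each). It measured 183, 161, 120, 168 and 175 CPM in the control females and 159, 145.8, 170.0, 196 and 192 CPM in the stressed females. Male controls gave 142, 145.6, 123, 145 and 136 CPM, and stressed males 169.9, 181, 178, 152 and 142 CPM. The groups overlapped within each sex and within each treatment. Its stress difference averaged over both sexes was 0.17 (SE 0.07, adjusted p 0.314). Cacnb1 had an unadjusted edgeR p under 0.05 for sex in controls and for stress in males. Leaving out 1 library at a time gave differences of -0.31 to -0.16 and of 0.21 to 0.29 there. With the striatal score as a covariate the Cacnb1 difference was 0.05 for sex in controls and -0.04 for stress in males. These values are small and of the other sign, and no reversal is read from them. Cacnb1 followed the score (r 0.877), so a smaller difference was built into that fit, and its cause was not tested. For Cacnb3 the stress difference in males was 0.12 (SE 0.07, adjusted p 0.440).

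Cacna2d3, an alpha-2-delta subunit with a known part in heat pain and hearing, measured 192, 150, 145, 183 and 188 CPM in female controls. Stressed females gave 142, 120, 171, 182 and 208 CPM. Male controls gave 143, 159, 126, 134 and 137 CPM, and stressed males 172, 198, 214, 163 and 169 CPM. All stressed males lay above all male controls, as for Scn4b, and the female groups overlapped. Scn4b and Cacna2d3 were the 2 of 33 members higher without overlap in stressed than in control males, where 3.13% of all genes were. For Cacna2d3 the stress difference in males was 0.39 (SE 0.12, adjusted p 0.119), that in females -0.05 (SE 0.12, adjusted p 0.965) and the interaction 0.44 (SE 0.17, adjusted p 0.366). A fit of only the male libraries did call Cacna2d3 for stress. The sex difference in controls was -0.29 (SE 0.12, adjusted p 0.240), and 0.06 with the striatal covariate. Cacna2d3 itself followed the striatal score (r 0.942), so a smaller difference was built into that fit, and its cause was not tested.

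The 250 bases before the transcript start of Cacna2d3 and of Scn9a are shown because these genes had the highest and the lowest stress difference in males among the members with a window free of annotated exons, Scn4b being left out for its exon overlap. Both are from RefSeq, build GRCm38.p6, 5′ to 3′ on the minus strand: Cacna2d3 at chr14:29721865-29722114 and Scn9a at chr2:66634963-66635212. Capitals mark the letters GGGCGG (GC box) in Cacna2d3 and TGTTCT (letters of a glucocorticoid receptor site) in Scn9a, read on either strand.
Cacna2d3: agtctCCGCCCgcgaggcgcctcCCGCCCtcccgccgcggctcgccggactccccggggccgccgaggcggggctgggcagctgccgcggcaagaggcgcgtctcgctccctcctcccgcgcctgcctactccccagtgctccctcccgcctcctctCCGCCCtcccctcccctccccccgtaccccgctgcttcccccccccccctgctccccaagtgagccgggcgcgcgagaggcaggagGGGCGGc
Scn9a: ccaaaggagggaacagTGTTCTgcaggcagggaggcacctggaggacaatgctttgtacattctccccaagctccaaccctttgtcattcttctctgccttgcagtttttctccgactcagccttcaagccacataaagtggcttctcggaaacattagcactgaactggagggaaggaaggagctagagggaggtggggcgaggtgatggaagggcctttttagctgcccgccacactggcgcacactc

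The Cacna2d3 window is 80% G and C and holds the GC box 4 times, whereas the Scn9a window is 54.4% G and C and holds TGTTCT once, 234 bases before the start. Over 32851 windows of the same length, the median GC content was 52.4%, 32.7% held a GC box and 16.1% held TGTTCT. Windows were found for 26 of 33 members, 37 windows in all, of which 35.1% held a GC box and 21.6% TGTTCT, the latter in Cacna1c, Cacna1d, Cacnb2, Nalcn, Scn2a, Scn4b, Scn8a and Scn9a. In Scn4b it starts 146 bases before the start, and a CCAAT box (letters CCAAT), present in 33.8% of all windows and 24.3% of those of members, 67 bases before it. Of the other motifs searched on both strands, the letters TATAAA were in 5.41% of member windows and 12.4% of all. The letters TGACG, from a cyclic AMP response element, were in 10.8% and 17.8%. The E-box CACGTG was in 0% and 6.02%, and the AP-1 site, spelled TGACTCA, in 2.7% and 4.46%. A match is a run of letters and not a shown binding site.

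Of the other alpha-2-delta subunits, Cacna2d2, a target of gabapentin-like drugs, measured 271, 265, 268, 267 and 267 CPM in stressed females and 251, 246, 247, 238 and 255 CPM in stressed males. These groups did not overlap, with the males lower by a log2 fold change of -0.11 (SE 0.06, adjusted p 0.738). Its controls gave 278, 298, 240, 267 and 264 CPM in females and 269, 259, 315, 274 and 233 CPM in males and overlapped widely. Cacna2d2 was the 1 member lower without overlap in stressed males than in stressed females, where 0.5% of all genes were. For Cacna2d4 the stress difference in females was -0.34 (SE 0.19, adjusted p 0.720). It measured 2.82, 2.66, 4.62, 6.02 and 2.90 CPM in the control females, 2.76, 3.33, 2.51, 1.76 and 2.90 CPM in the stressed females, 2.61, 3.09, 3.62, 3.15 and 3.85 CPM in male controls, and 2.53, 3.61, 3.41, 2.95 and 3.11 CPM in stressed males. Female controls 3 and 4 stood above the rest, and the groups overlapped. Female control 4 is the shallowest library, at 2707881 counts, so its value rests on few reads. Leaving out 1 library at a time moved the difference in females between -0.45 and -0.17, the latter without female control 3.

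Pore-forming calcium channel subunits showed no called difference. Cacna1a, which carries the P/Q-type current of transmitter release, measured 158, 155, 139, 157 and 140 CPM in the control females, 141, 150, 135, 170 and 179 CPM in stressed females, 150, 136, 155, 145 and 133 CPM in male controls, and 138, 135, 148, 117 and 135 CPM in stressed males. Stressed females 4 and 5 were the highest of the 20 libraries and stressed male 4 the lowest. The difference between stressed males and stressed females was -0.21 (SE 0.07, adjusted p 0.628). Cacna1a was the 1 member of 33 at an unadjusted p under 0.05 in that comparison, against 7.06% of all genes.

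Cacna1b, which carries the N-type current, measured 192, 209, 183, 192 and 174 CPM in the control females, 183, 200, 173, 207 and 213 CPM in stressed females, 233, 190, 214, 190 and 168 CPM in male controls, and 191, 171, 186, 158 and 197 CPM in stressed males. All groups overlapped, and its stress difference was 0.04 in females (95% interval -0.13 to 0.20) and -0.14 in males (-0.30 to 0.03). The 5 alpha-1 genes had stress differences of 0.04 to 0.14 in females and of -0.14 to -0.02 in males. Their interaction values lay between -0.23 for Cacna1d and -0.15 for Cacna1a, with adjusted p of 0.524 and 0.656.

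In the gamma family Cacng7, which encodes a TARP, was the 1 of 33 members lower without overlap in stressed than in control females, where 0.562% of all genes were. It measured 125, 124, 137, 133 and 138 CPM in female controls. Stressed females gave 115, 123, 120, 122 and 122 CPM. Male controls gave 113, 113, 139, 118 and 122 CPM, and stressed males 122, 118, 106, 106 and 112 CPM. The female groups were separated by a narrow gap and the male groups overlapped. The stress difference of Cacng7 was -0.13 in females (SE 0.06, adjusted p 0.648), -0.10 in males (SE 0.06, adjusted p 0.406) and -0.11 averaged over both (SE 0.04, adjusted p 0.278). Oligodendrocyte markers were lower in stressed than in control females for 13 of 13 genes (median -0.26). With their mean log2 CPM as a covariate the Cacng7 difference in females was -0.08 (adjusted p 0.886, with 0.426 to 0.9998 over all alternatives). Cacng7 was called in neither fit, and the part of the oligodendrocyte markers in its difference was not tested.

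All 6 gamma-family genes had lower values in male than in female controls, without a call in the edgeR fit of all 20 libraries. The TARP genes Cacng3, Cacng2 and Cacng4 had the largest of these differences. Alternatives did call Cacng3 for sex in controls: DESeq2, the oligodendrocyte covariate, only the controls fitted, and female control 3 left out. For stress in males a fit of only the male libraries called it. In female controls Cacng3 had a mean of 86.7 ± 18.7 CPM, against 64.6 ± 3.46 CPM in the male controls (SD, n = 5 each), a difference of -0.43 (SE 0.13, adjusted p 0.105). For Cacng2 this difference was -0.23 (SE 0.08, adjusted p 0.179) and for Cacng4 -0.20 (SE 0.08, adjusted p 0.232). For Cacng7 it was -0.12 (SE 0.06, adjusted p 0.306), with an unadjusted edgeR p of 0.042. Unlike Cacng3 and Cacng4, Cacng7 did not rise with the striatal score (r -0.117). Cacng3 averaged 79.7 ± 7.92 CPM in stressed males, a stress difference of 0.30 (SE 0.12, adjusted p 0.246) that was -0.08 with the striatal covariate. Cacng3 also followed the striatal score (r 0.884), so a smaller difference was built into that fit, and its cause was not tested. Cacng5 and Cacng8 had differences between -0.04 and 0.03 in the same 2 comparisons.

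The NALCN complex gave no call either. Nalcn measured 217, 227, 236, 232 and 235 CPM in the control females, 213, 216, 214, 215 and 226 CPM in stressed females, 225, 221, 240, 233 and 221 CPM in male controls, and 239, 233, 220, 219 and 227 CPM in stressed males. All groups overlapped. The stress difference of Nalcn was -0.08 in females (95% interval -0.16 to 0.00, adjusted p 0.675) and lay between -0.09 and 0.08 in males. Unc80 measured 453, 473, 499, 473 and 446 CPM in the control females, 419, 507, 408, 485 and 512 CPM in stressed females, 477, 432, 500.3, 456 and 433 CPM in male controls, and 486, 457, 464, 404 and 469 CPM in stressed males. Its stress intervals were -0.15 to 0.13 in females and -0.15 to 0.13 in males, and those of Unc79 were wider, at -0.15 to 0.25 and -0.08 to 0.31.

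**Figure D4:**
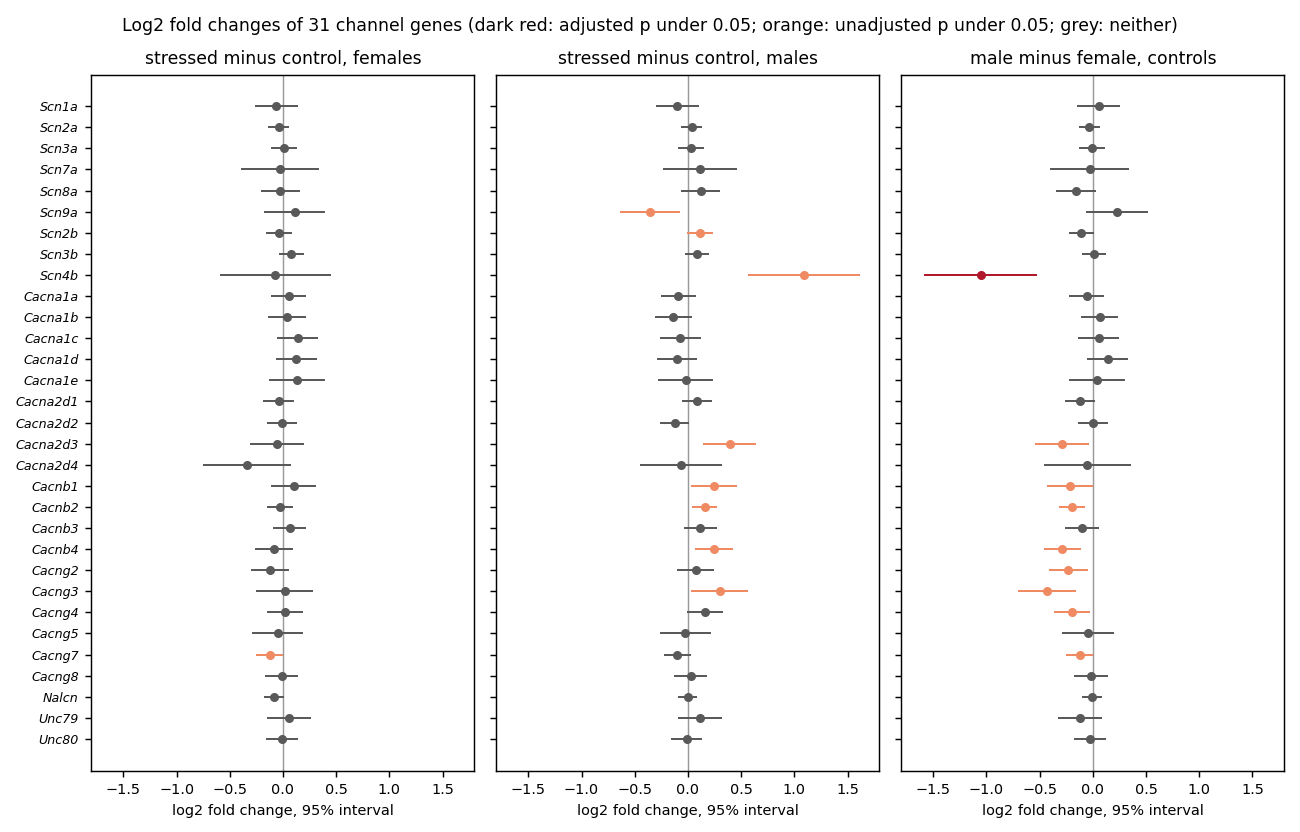
Log2 fold changes of 31 of the 33 channel genes with 95% intervals from the edgeR fit, for stress in females, stress in males and sex in controls (male minus female). Dark red marks the 1 call, Scn4b in controls, orange an unadjusted p under 0.05 and grey the rest. The middle and right panels share the male controls.

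Counted over the set, 1 of 33 members was called for sex in controls and 0 of 33 in each of the other 5 comparisons by edgeR. All genes were called at 0% for stress in females, 0.0077% for stress in males, 0.077% for sex in stressed mice, 0% for the interaction and 0% for stress averaged over both sexes. Without stressed female 2 the last of these was 1.15%, or 150 genes, with 0 members among them. DESeq2 called 3 members for sex in controls (1.91% of all genes), 1 for stress in males (1.67%) and 0 in the other 4 comparisons, and limma-voom called 0 in all 6. At an unadjusted p under 0.05, the stress comparison in males held 8 members (7 higher, 1 lower), 24.2% of the set against 15.5% of all genes (8.71% higher, 6.76% lower). Sex in controls held 11 members (10 lower, 1 higher), 33.3% against 15.3% of all genes (8.17% lower, 7.08% higher). Stress in females held 1 member, 3.03% against 7.51%, the interaction 5, 15.2% against 10.4%, and averaged stress 4, 12.1% against 12.7%. The median log2 fold change of the 33 members was 0.04 for stress in males and -0.05 for sex in controls, beside -0.01 and 0.00 over all genes.

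Among the other members, Cacng4 (r 0.921), Cacna2d3 (0.942), Cacng3 (0.884), Cacnb4 (0.883) and Cacnb1 (0.877) also followed the striatal score over the 20 libraries, each with a permutation p adjusted over 33 members of 5.5e-05. After group means were subtracted, r was 0.909, 0.951, 0.852, 0.823 and 0.846 in the same order, and without the 2 libraries farthest from the median score it was 0.844 or more for each. Cacnb2, at 0.722, was at 0.504 after subtraction. Scn2b (0.803), Cacnb3 (0.755), Unc79 (0.685), Scn8a (0.685), Scn3b (0.649) and Cacng8 (0.516) rose with the score too. Their adjusted permutation p were 0.0373 or less. The share of all genes that follow this score was not computed, so the relation is not shown to be particular to channel genes. Scn9a ran opposite to the score, at -0.552 (adjusted permutation p 0.0288). For Nalcn (-0.192), Unc80 (-0.0907) and Cacna2d2 (-0.093) r was near 0. The slope of Scn4b, at 1.62, was above those of Cacng3 (0.638) and Cacna2d3 (0.612), on the log2 scale.

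**Figure D5:**
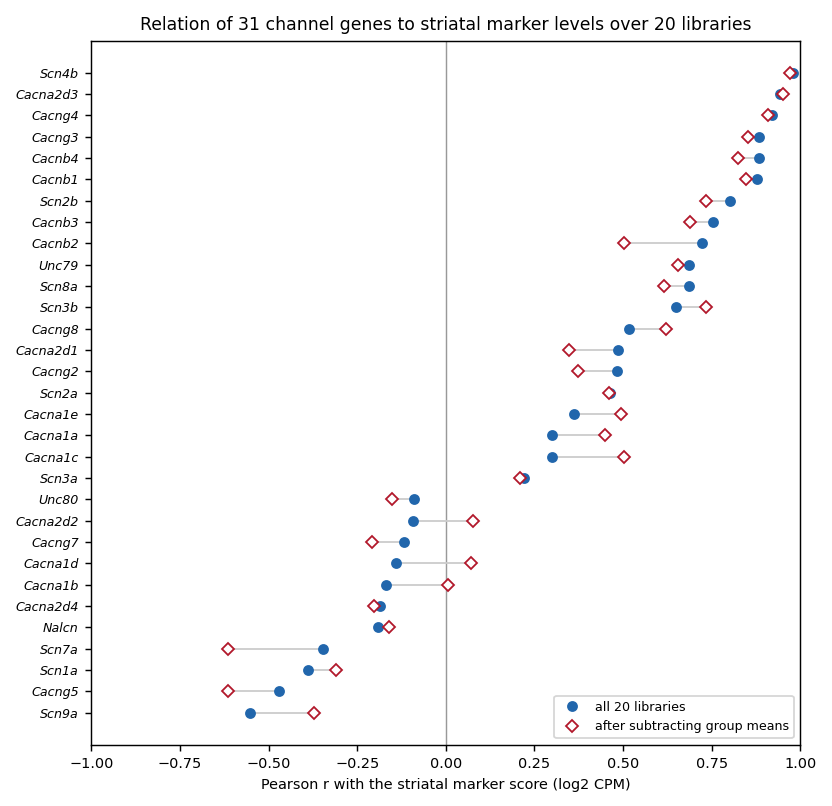
Pearson's r of log2 CPM with the striatal marker score for 31 of the 33 channel genes, ordered by r. Filled circles use all 20 libraries and open diamonds the same values after subtracting each group's mean. Scn4b, at 0.98 and 0.971, is at the top and Scn9a, at -0.552 and -0.373, at the bottom of the genes drawn.

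Genes whose proteins bind these channels were looked at as well. None of 15 calcium channel partners, 12 AMPA receptor and TARP partners, 13 sodium channel partners and 1 NALCN partner was called by edgeR in any comparison, while DESeq2 called 2 of them for sex in controls and limma-voom 0. For sex in controls 6, 3, 3 and 0 of them had an unadjusted p under 0.05, that is 40%, 25%, 23.1% and 0% of each list beside 15.3% of all genes. The median log2 fold change of the first 3 lists in that comparison was -0.04, 0.00 and -0.07. Gsg1l, an AMPA receptor subunit that slows recovery from desensitization, had a sex difference of -0.59 in controls (SE 0.16, adjusted p 0.074) and a stress difference of 0.46 in males (SE 0.15, adjusted p 0.147). Calm2, which encodes calmodulin, was at -0.18 (SE 0.06, adjusted p 0.121) in controls, and Cabp7, a calmodulin relative, at 0.37 (SE 0.13, adjusted p 0.168). Fgf13 and Fgf14, intracellular partners of the sodium channel alpha subunits, were at -0.22 (SE 0.07, adjusted p 0.103) and -0.16 (SE 0.05, adjusted p 0.156). Shisa9 was at -0.20 (SE 0.07, adjusted p 0.183) and Fam155a, a NALCN partner, at 0.14 (SE 0.10, adjusted p 0.553).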

How the data were processed

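The authors deposited 1 table of whole-number counts per gene symbol for 20 libraries; reads were counted with featureCounts after alignment with STAR to mm10, per the submitters' processing notes, and the kit was stranded per the labels' protocols. Versions, annotation and strand setting are not given in the sources used here. Every row total was at least 1002, so lower genes were not analysed here. Counts were fitted with edgeR 4.0.16 in R 4.3.3 (TMM, 4 group means, quasi-likelihood test without covariates). The filter filterByExpr kept all 12988 genes, all 33 members included. P-values are two-sided and adjusted by the Benjamini-Hochberg method. Log2 CPM used a prior count of 2. The SE of a log2 fold change was derived as its absolute value divided by the square root of the test's F statistic. Intervals were built from that SE. Intervals cover 95%; 1 of 198 member results (Cacnb2, stress in females) has its p raised to edgeR's Poisson bound, so that its interval is not read.

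Of the 40 pairs of libraries within groups, none agreed within counting noise (chi-square per degree of freedom 1.88 to 39.4). The labels do not say whether pooled mice shared litters or cages, and p-values measure the spread between pools. The script was tested on simulated data. The members and all gene lists were chosen with earlier results of these data known. Genes described with all library values were each member called, the 3 with the smallest p in each of the 6 comparisons and the most abundant per kilobase of each class; partner genes were the 2 with the smallest p per list for sex in controls. Exon lengths and positions are from GENCODE M21 (GRCm38), and 10 members have exons overlapping another gene. Alternatives were DESeq2 1.42.0, limma-voom (limma 3.58.1), DESeq2 size factors, other filters, fits of only the groups compared, a replicate block, marker covariates and leaving out libraries. Results of 2 of the 33 members are counted in the totals but not reported individually here, and they are left out of the plots.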

Additional observations from a re-analysis of the deposited data

Results flagged for a closer look

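Of 132 groups of 5 libraries (33 members in 4 groups), 5 held a library whose gap to the nearest of the others took up an unusual part of the group's range. Chance flags about 1 in 20 groups. Scn2b in stressed male 5 measured 331.5 CPM, below the 369.1 to 372 CPM of the other stressed males. Scn1a in male control 3 measured 130.8 CPM, above the 98.3 to 105 CPM of the others. Cacna2d1 was low in female control 2, at 132.9 CPM beside 151.7 to 158.4, and in stressed male 4, at 128.2 CPM beside 146.8 to 153.4. Nalcn in stressed female 5 measured 226 CPM, above the 212.8 to 216 CPM of the others.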

How the results depend on the processing

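For stress in males, where edgeR called 0 members, DESeq2 called 1 (Scn4b) and a fit of only the male libraries 3 (Scn4b, Cacna2d3 and Cacng3). For sex in controls, where 1 member was called, the count was 3 with DESeq2, 3 with the oligodendrocyte covariate and 3 in a fit of only the controls, where 1.91%, 2.46% and 2.34% of all genes were called against 0.747%; it was 0 with DESeq2 size factors, 0 with limma-voom, 0 with the striatal covariate and 0 with the replicate block. Where 3 members were called for sex in controls, they were Scn4b, Cacnb4 and Cacng3. With the replicate block the adjusted p of Scn4b was 0.0928 in controls and 0.171 for stress in males. Same-numbered libraries did not pair (correlations of -0.473 to 0.237, over 0.1 in 5 of 20 pairs). Leaving out 1 library at a time gave 0 to 1 members for stress in males (1, Scn4b, without male stressed 5). For sex in controls it gave 0 to 2 (2, Scn4b and Cacng3, without female control 3). Leaving out both female control 4, the shallowest, and female stressed 2, the highest in thalamic markers, a choice made after seeing the data, gave 1 for stress in males and 0 for sex in controls. Partner genes called went from 0 to 1 for stress in males in the male fit, and for sex in controls from 0 to 2 with DESeq2, 2 with the oligodendrocyte covariate, 2 in the fit of only the controls and 0 to 1 when 1 library was left out. The striatal covariate turned the sign of Cacnb1 (-0.038) and Cacng3 (-0.085) for stress in males and of Cacng4 (0.020), Cacna2d3 (0.063) and Cacnb1 (0.049) for sex in controls. All 5 values were small, and no reversal is read from them. Of 760 values of 34 gene results under these alternatives, 729 kept their direction and side of the threshold, 13 gained a call, 13 lost one and 5 turned. The 13 losses were all of Scn4b for sex in controls, the 1 result called in the main fit, out of its 20 alternatives. The other results had no call, so keeping their side of the threshold meant staying uncalled. Filtering removed no gene, so the fit without it is the same fit. The cause of these changes was not tested. Over all genes, sex in controls called 97 genes, 248 with DESeq2 and 304 in a fit of only the controls, and 32 to 214 when 1 library was left out; stress in males called 1, 217 with DESeq2, 303 in the male fit and 0 to 129 when 1 library was left out (129 without male stressed 5). Depth limits the lowest members most: Scn7a has 15 counts in the shallowest library.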
